A study of Mus musculus with 15 samples.

Results

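The genes described here are 40 genes of the cell cycle, named by symbol and covering entry into the cycle, DNA replication and mitosis, out of 20325 genes listed in liver RNA profiles of 15 mice. All 40 were present in the files. They were listed by function, with earlier results of these data known, and fall into 15 genes of the G1/S transition and replication and 25 genes of mitosis. All mice were male C57BL/6J, an inbred strain, and were 19 weeks old, with 3 mice in each of 5 groups. Conventionally raised (ConvR) mice acquired microbes from birth and ate a high-fat, high-sucrose diet (HF/HS) or breeder chow. Germ-free (GF) mice, kept without microbes, ate the same diets. Conventionalized (ConvD) mice ate chow, were GF until an oral gavage of cecal contents of chow-fed ConvR donors at 15 weeks, and were sampled 4 weeks after it. The diets began after 3 weeks of age, and fat supplied 44.6% of energy in HF/HS, against 23.7% in chow. GF and ConvR animals lived in separate isolators, ConvD animals in sealed cages, and cage mates shared status and diet, so that housing and group cannot be told apart.

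A dividing cell passes from the G1 phase into DNA synthesis (S), then through G2 into mitosis. D-type and E-type cyclins release E2F transcription factors, which switch on genes for the MCM helicase, for nucleotide supply and for the replication machinery, while genes of mitosis peak later, under FOXM1, B-MYB and the DREAM/MuvB complexes. Hepatocytes of the adult liver are mostly quiescent and many are polyploid, and they re-enter the cycle after loss of tissue or injury. In whole tissue such as this, fewer cells of a type and less RNA per cell cannot be told apart.

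Libraries held 14737578 to 21794811 estimated reads. The hepatocyte gene Alb, for albumin, ranged between 31500 and 98600 counts-per-million (CPM), and the summed hepatocyte markers between 62500 and 141000 CPM, so the labelled tissue carried its defining transcripts. The 40 cell cycle genes together took 0.012% to 0.0217% of the reads of a library, or 1772 to 4638 reads, and the 25 mitotic genes had 221 to 1228 reads. Acute phase genes stood apart in ConvR chow mice 1 and 2, and immediate early genes in GF chow mouse 1, which is taken up below. All CPM values are scaled by TMM normalization factors, and a call means an adjusted p below 0.05 in edgeR's quasi-likelihood F test with Benjamini-Hochberg adjustment over 12377 genes. Nothing in the labels says more of the replicates than that they are separate mice.

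Per transcript length, the replication genes were the more abundant. Pcna, the sliding clamp of DNA polymerases, averaged 28.3 transcripts-per-million (TPM) over the 15 livers, Tk1, thymidine kinase of the nucleotide salvage pathway, 14.7 TPM, Ccnd1, cyclin D1, 9.58 TPM, and Mcm7, a helicase subunit, 8.23 TPM. These were the 4 members at or above 5 TPM. Of the 40 members, 16 averaged at least 1 TPM and 24 less, and the lowest were Cenpf, a kinetochore protein, at 0.103 TPM and Bub1, a spindle checkpoint kinase, at 0.0927 TPM. In reads, Pcna had 298 to 523 per library, while Ccnb1, cyclin B1, had 1 to 36 and Plk1, a mitotic kinase, 1 to 28, so counting error weighs heavily on single mitotic genes.

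A filter on low counts, of about 0.547 CPM in at least 3 libraries, admitted 38 of the 40 members. Bub1 and Cdkn3, a phosphatase that acts on CDKs, did not pass. Of the 38, 29 would have passed without any ConvR library, and 9 passed only through ConvR libraries: Ccne1, Ccnb1, Ccnb2, Foxm1, Plk1, Aurkb, Ube2c, Nusap1 and Cenpe. For those 9 a higher value in ConvR mice was a condition of being tested, so counts and medians over the tested members are given as a description, with those over the 29 members beside them.

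**Figure D1:**
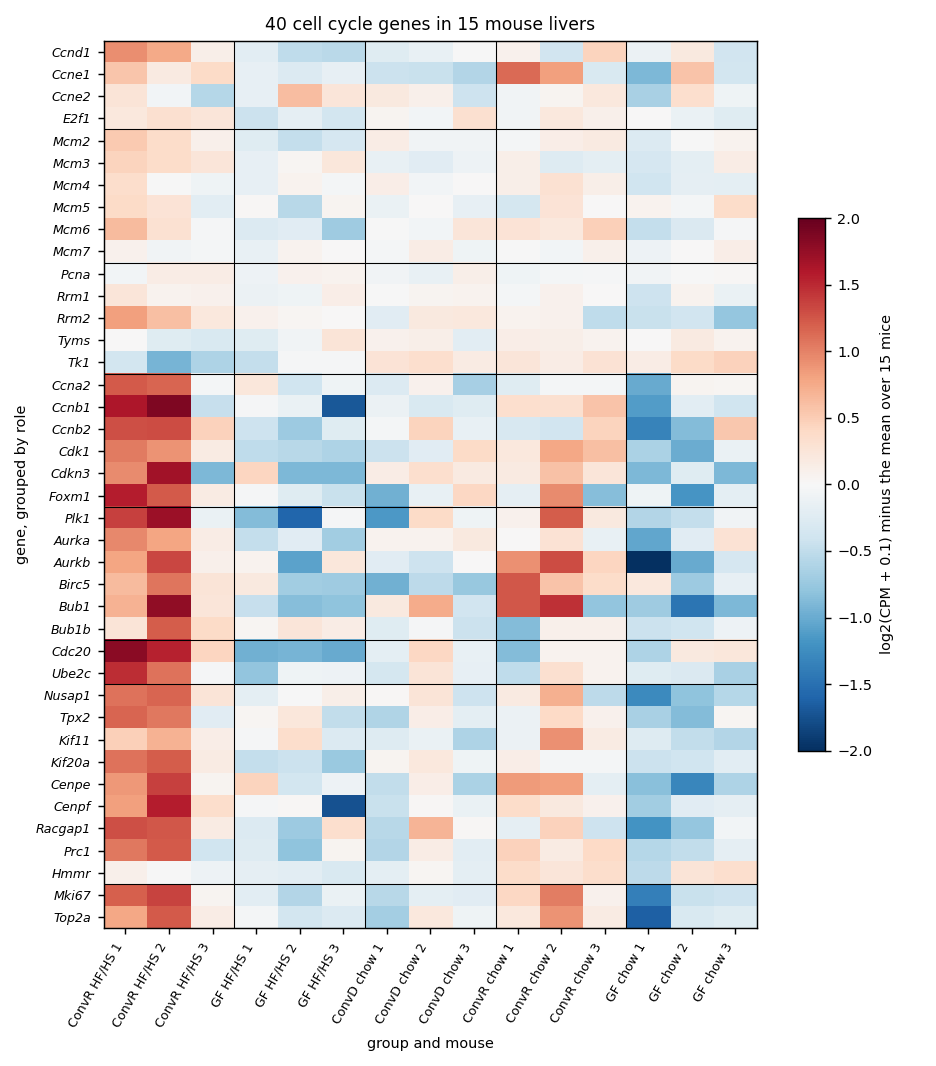
The heat map plots each of the 40 genes (rows, grouped by role) in each of the 15 livers (columns, by group), as the log2 level minus that gene's mean over the 15 mice. ConvR HF/HS mice 1 and 2 between them hold the highest value of 32 of the 40 genes, 16 in each mouse, and of 22 of the 25 mitotic genes, while Birc5, Hmmr and Kif11 are highest in ConvR chow mouse 1 or 2.

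Mitotic transcripts were higher in ConvR than in GF livers, averaged over both diets, with a smaller median difference for the G1/S and replication transcripts. Of the 38 members tested, 16 were called higher in ConvR mice and 0 lower, against 4.14% of all genes tested called higher. Among the 29 members that pass without ConvR libraries, 11 were called higher. With no filter, 17 of all 40 were called higher, against 2.7% of 16284 genes, the addition being Bub1 (log2 fold change 2.93 ± 0.64, SE, adjusted p = 0.0155). Of the tested members, 12 of 23 mitotic and 4 of 15 G1/S and replication genes were called. The median log2 fold change was 0.75 over the 38 members, 1.05 over the 23 mitotic and 0.16 over the 15 G1/S and replication members, with -0.005 over all genes tested. Of the 23 mitotic members 8 passed the filter only through ConvR libraries, which favours a high median. Over the 29 members that pass without those libraries the median was 0.56, with 0.96 over the 15 mitotic and 0.16 over the 14 G1/S and replication members among them. The 6 ConvR livers all lay above the 6 GF livers for 6 members, namely Birc5, Cdk1, Kif20a, Cenpf, Mki67 and Top2a, against 1.07% of all genes.

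The calls depended on single animals. Leaving out each of the 15 libraries in turn gave 4 calls without ConvR HF/HS mouse 2, 6 without ConvR chow mouse 2, 6 without GF HF/HS mouse 2, 7 without GF HF/HS mouse 3, 10 without ConvR HF/HS mouse 1 and up to 21 without ConvR HF/HS mouse 3. Mcm6, Cdk1, Kif20a and Mki67 were called in all 15 of these fits. Ccnd1, E2f1, Mcm2, Aurkb, Birc5, Cenpe and Top2a kept theirs in 9 to 12 of the 15 fits, and Ccnb1, Plk1, Cdc20, Nusap1 and Prc1 in 1 to 7. Without both ConvR HF/HS mice 1 and 2 no member was called, and without both ConvR chow mice 1 and 2 the count was 2, with a median over the tested members of 0.48 and 0.70, against 0.75 with all libraries.

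**Figure D2:**
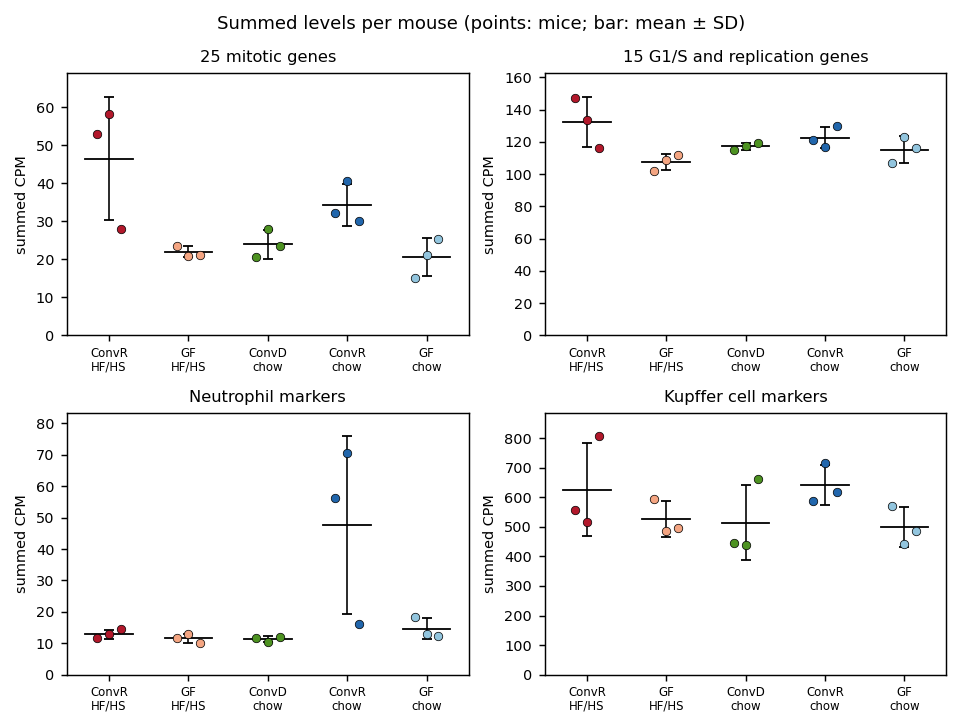
The plot gives summed CPM per mouse for the mitotic and for the G1/S and replication members, with points for mice and bars for mean ± SD (n = 3 per group). Mitotic sums reach 53.1 and 58.4 CPM in ConvR HF/HS mice 1 and 2, while the G1/S and replication sums lie between 102.2 and 147.3 CPM in all groups.

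Summed over the 25 mitotic genes, levels were 53.1, 58.4 and 28.0 CPM in ConvR HF/HS mice, against 23.6, 21.0 and 21.2 CPM in GF HF/HS mice. On chow the same sum was 32.2, 40.7 and 30.2 CPM in ConvR mice, against 15.2, 21.2 and 25.3 CPM in GF mice. The groups did not overlap on either diet, and the third ConvR HF/HS mouse lay nearer to the GF mice than ConvR HF/HS mice 1 and 2 did. The 15 G1/S and replication genes summed to 147.3, 133.3 and 116.2 CPM in ConvR HF/HS mice, against 102.2, 108.7 and 111.9 CPM in GF HF/HS mice. On chow they came to 121.4, 116.7 and 129.8 CPM in ConvR mice, against 106.7, 122.9 and 116.2 CPM in GF mice, with overlap.

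Among the G1/S cyclins and E2F factors, Ccnd1 and E2f1 were called higher in ConvR livers and Ccne1 and Ccne2 were not. Ccnd1, the D-type cyclin that mitogens induce at entry into the cycle, had 41.3, 36.5 and 23.5 CPM in ConvR HF/HS mice, against 18.6, 15.1 and 14.8 CPM in GF HF/HS mice. On chow it had 22.9, 16.5 and 29.5 CPM in ConvR mice, against 19.8, 24.6 and 16.5 CPM in GF mice. The groups were apart on HF/HS and overlapped on chow, and the averaged log2 fold change was 0.62 ± 0.16 (SE, adjusted p = 0.0297). E2f1, an activator of S-phase genes, had 4.15, 4.50 and 4.23 CPM in ConvR HF/HS mice, against 2.63, 3.15 and 2.74 CPM in GF HF/HS mice. On chow E2f1 had 3.41, 4.16 and 3.86 CPM in ConvR mice, against 3.58, 3.26 and 3.00 CPM in GF mice, and its averaged log2 fold change was 0.41 ± 0.10 (adjusted p = 0.031). The E-type cyclins bind CDK2 at the start of S phase. Ccne2 averaged 0.868 ± 0.267 CPM in ConvR HF/HS, 1.13 ± 0.331 CPM in GF HF/HS, 0.911 ± 0.217 CPM in ConvD chow, 0.977 ± 0.103 CPM in ConvR chow and 0.874 ± 0.325 CPM in GF chow mice (SD, n = 3 each), a difference of -0.12 ± 0.23 on the log2 scale between ConvR and GF mice that was within the spread. Ccne1 had a log2 fold change of 0.79 ± 0.31 (adjusted p = 0.123).

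The MCM proteins form the ring that licenses and then unwinds replication origins, and 2 of the 6 were called. Mcm6 had 6.65, 5.29 and 4.19 CPM in ConvR HF/HS mice, against 3.54, 3.63 and 2.56 CPM in GF HF/HS mice. It had 5.17, 4.94 and 5.97 CPM in ConvR chow mice, against 3.03, 3.48 and 4.21 CPM in GF chow mice, so that the groups were apart on each diet. Its averaged log2 fold change was 0.65 ± 0.14 (SE, adjusted p = 0.0142). Mcm2 had 5.36, 4.75 and 3.96 CPM in ConvR HF/HS mice, against 3.09, 2.63 and 2.91 CPM in GF HF/HS mice, with no overlap. On chow Mcm2 had 3.57, 4.04 and 4.16 CPM in ConvR mice, against 3.03, 3.66 and 3.87 CPM in GF mice, with overlap, and its averaged log2 fold change was 0.43 ± 0.11 (adjusted p = 0.031). The log2 fold changes of the subunits not called were 0.16 ± 0.11 for Mcm3, 0.29 ± 0.10 for Mcm4, 0.08 ± 0.16 for Mcm5 and 0.00 ± 0.07 for Mcm7.

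Of the 5 genes for nucleotide supply and the polymerase clamp, 0 were called in the averaged comparison. By edgeR at an unadjusted p below 0.05, 1 lay higher (Rrm2) and 1 lower (Tk1), against 12.3% and 13.2% of all genes. Pcna averaged 22.8 ± 1.90 CPM in ConvR HF/HS, 21.8 ± 1.55 CPM in GF HF/HS, 21.0 ± 1.99 CPM in ConvD chow, 20.8 ± 0.418 CPM in ConvR chow and 21.2 ± 0.638 CPM in GF chow mice (SD, n = 3 each). Its highest library was 1.23 times its lowest, as for Mcm7, the smallest ratio among the members. Rrm1 and Rrm2, the subunits of ribonucleotide reductase, had log2 fold changes of 0.16 ± 0.09 and 0.49 ± 0.15 (adjusted p = 0.263 and 0.0559). Tyms, thymidylate synthase, and Tk1 had -0.07 ± 0.09 and -0.29 ± 0.10 (adjusted p = 0.666 and 0.104).

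CDK1 with cyclin B drives entry into mitosis, and Cdk1 and Ccnb1 were the members of that class called. Cdk1 had 2.42, 2.18 and 1.27 CPM in ConvR HF/HS mice, against 0.759, 0.736 and 0.699 CPM in GF HF/HS mice. On chow it had 1.32, 1.99 and 1.75 CPM in ConvR mice, against 0.688, 0.514 and 1.02 CPM in GF mice. Every ConvR mouse lay above every GF mouse, and the averaged log2 fold change was 1.28 ± 0.23 (SE, adjusted p = 0.00558), the smallest adjusted p among the members in that comparison. Ccnb1 had 1.47, 1.78 and 0.273 CPM in ConvR HF/HS mice, against 0.405, 0.368 and 0.0582 CPM in GF HF/HS mice, so the third ConvR mouse fell within the GF range. On chow Ccnb1 had 0.55, 0.542 and 0.663 CPM in ConvR mice, against 0.138, 0.343 and 0.29 CPM in GF mice, and the averaged log2 fold change was 1.57 ± 0.45 (adjusted p = 0.0468). Ccna2, Ccnb2 and Foxm1, for cyclin A2, cyclin B2 and the mitotic transcription factor, had log2 fold changes of 0.56 ± 0.28, 1.01 ± 0.36 and 1.09 ± 0.41 (adjusted p = 0.221, 0.102 and 0.113). Cdkn3 had 0 to 10.3 reads in a library and was at 0 in 5 of the 15.

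Of the mitotic kinases and checkpoint genes, Plk1, Aurkb and Birc5 were called. Birc5 (survivin) and Aurkb (Aurora B) belong to the chromosomal passenger complex, which corrects kinetochore attachments. Birc5 had 1.34, 1.83 and 1.00 CPM in ConvR HF/HS mice, against 0.962, 0.473 and 0.466 CPM in GF HF/HS mice. On chow Birc5 had 2.09, 1.27 and 1.09 CPM in ConvR mice, against 0.964, 0.457 and 0.725 CPM in GF mice. All ConvR mice were above all GF mice, and the averaged log2 fold change was 1.09 ± 0.26 (SE, adjusted p = 0.0238). Aurkb had 0.648, 0.99 and 0.364 CPM in ConvR HF/HS mice, against 0.354, 0.105 and 0.407 CPM in GF HF/HS mice, which overlapped. On chow it had 0.715, 0.964 and 0.482 CPM in ConvR mice, against 0, 0.114 and 0.242 CPM in GF mice. The averaged log2 fold change of Aurkb was 1.79 ± 0.42 (adjusted p = 0.0215). Plk1, which acts in spindle assembly and mitotic entry, had 1.08, 1.39 and 0.318 CPM in ConvR HF/HS mice, against 0.152, 0.0525 and 0.349 CPM in GF HF/HS mice. On chow Plk1 had 0.385, 0.964 and 0.422 CPM in ConvR mice, against 0.206, 0.229 and 0.338 CPM in GF mice, and the averaged log2 fold change was 1.73 ± 0.48 (adjusted p = 0.042). Aurka (Aurora A) and Bub1b (the checkpoint protein BUBR1) had log2 fold changes of 0.76 ± 0.24 and 0.35 ± 0.24 (adjusted p = 0.0657 and 0.39). Bub1 had 0.346, 0.841 and 0.227 CPM in ConvR HF/HS mice, against 0.101, 0.0525 and 0.0582 CPM in GF HF/HS mice, with at most 17 reads in any library.

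Cdc20, the activator of the anaphase-promoting complex (APC/C), showed the largest fold change of the tested members on HF/HS and none on chow that exceeded its error. It had 2.64, 2.18 and 0.955 CPM in ConvR HF/HS mice, against 0.304, 0.315 and 0.291 CPM in GF HF/HS mice. On chow Cdc20 had 0.33, 0.723 and 0.724 CPM in ConvR mice, against 0.413, 0.80 and 0.822 CPM in GF mice. The groups were fully apart on HF/HS and overlapped on chow. The averaged log2 fold change of 1.2 ± 0.32 (SE, adjusted p = 0.0375) joins 2.64 ± 0.43 on HF/HS and -0.24 ± 0.46 on chow. Ube2c, the ubiquitin-conjugating enzyme of the same complex, had 1.60, 1.19 and 0.50 CPM in ConvR HF/HS mice, against 0.253, 0.473 and 0.466 CPM in GF HF/HS mice. On chow it had 0.33, 0.663 and 0.543 CPM in ConvR mice, against 0.413, 0.40 and 0.29 CPM in GF mice, with overlap. The averaged log2 fold change of Ube2c was 0.97 ± 0.33 (adjusted p = 0.082).

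Of 9 genes for the spindle, kinetochore and cytokinesis, all had averaged log2 fold changes above 0 and 4 were called. Kif20a, a kinesin of the central spindle, had 2.76, 3.02 and 1.41 CPM in ConvR HF/HS mice, against 0.86, 0.893 and 0.699 CPM in GF HF/HS mice. On chow it had 1.37, 1.21 and 1.21 CPM in ConvR mice, against 0.895, 0.914 and 1.06 CPM in GF mice. No ConvR mouse fell within the GF range, and the averaged log2 fold change was 0.96 ± 0.20 (SE, adjusted p = 0.0117). Cenpe, a kinesin at the kinetochore, had 1.12, 1.63 and 0.591 CPM in ConvR HF/HS mice, against 0.81, 0.42 and 0.524 CPM in GF HF/HS mice, and on chow 1.10, 1.08 and 0.482 CPM in ConvR mice, against 0.275, 0.171 and 0.338 CPM in GF mice. Its averaged log2 fold change was 1.32 ± 0.33 (adjusted p = 0.0284). Prc1, which bundles microtubules for cytokinesis, had 2.55, 2.87 and 0.864 CPM in ConvR HF/HS mice, against 0.962, 0.631 and 1.22 CPM in GF HF/HS mice, and on chow 1.65, 1.33 and 1.57 CPM in ConvR mice, against 0.757, 0.80 and 1.02 CPM in GF mice. The HF/HS groups of Prc1 overlapped through ConvR HF/HS mouse 3, the chow groups did not, and the averaged log2 fold change was 0.98 ± 0.28 (adjusted p = 0.0436). Nusap1, a microtubule-binding spindle protein, had 1.12, 1.19 and 0.591 CPM in ConvR HF/HS mice, against 0.405, 0.473 and 0.524 CPM in GF HF/HS mice, and on chow 0.55, 0.844 and 0.302 CPM in ConvR mice, against 0.138, 0.229 and 0.29 CPM in GF mice. The averaged log2 fold change of Nusap1 was 1.17 ± 0.30 (adjusted p = 0.0328). The remaining 5, Tpx2, Kif11, Cenpf, Racgap1 and Hmmr, had log2 fold changes between 0.24 ± 0.13 for Hmmr and 1.08 ± 0.32 for Cenpf, with adjusted p between 0.0517 for Cenpf and 0.251 for Hmmr.

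Both genes whose products are the usual marks of cycling cells were called. Mki67, which coats mitotic chromosomes and encodes the Ki-67 antigen, had 8.16, 9.10 and 3.64 CPM in ConvR HF/HS mice, against 3.04, 2.31 and 3.20 CPM in GF HF/HS mice. On chow Mki67 had 4.73, 7.23 and 3.74 CPM in ConvR mice, against 1.31, 2.57 and 2.61 CPM in GF mice. The ranges did not overlap on either diet, and the averaged log2 fold change was 1.27 ± 0.24 (SE, adjusted p = 0.00843). Top2a, the topoisomerase that untangles sister chromatids, had 3.72, 5.10 and 2.37 CPM in ConvR HF/HS mice, against 2.08, 1.63 and 1.75 CPM in GF HF/HS mice. On chow it had 2.47, 4.04 and 2.41 CPM in ConvR mice, against 0.619, 1.71 and 1.79 CPM in GF mice, with no overlap and an averaged log2 fold change of 1.05 ± 0.26 (adjusted p = 0.0261).

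**Figure D3:**
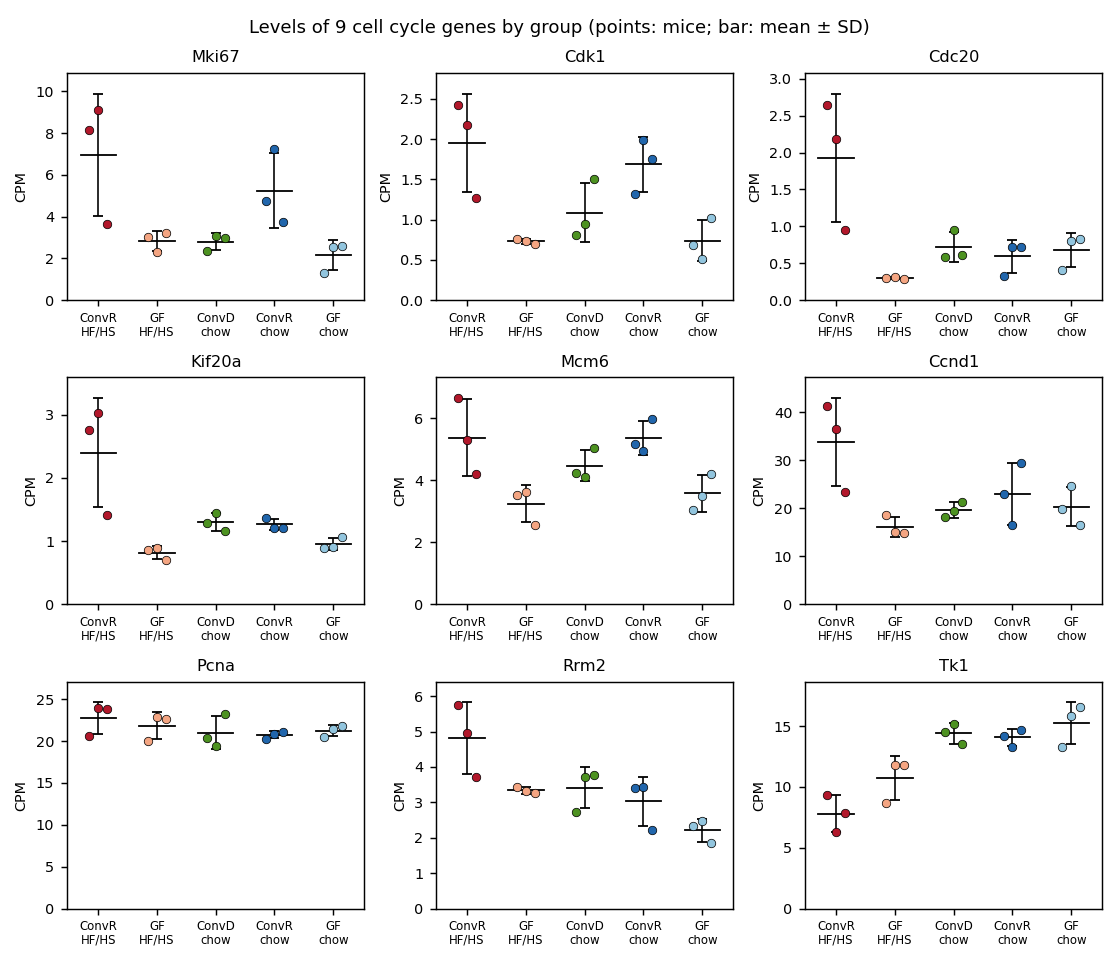
The panels plot CPM per mouse for 9 genes in the 5 groups, with points for mice and bars for mean ± SD (n = 3 per group). Mki67, Cdk1, Kif20a and Mcm6 are higher in ConvR than in GF mice on both diets, Cdc20 and Ccnd1 separate on HF/HS, Pcna is level across groups, and Rrm2 and Tk1 differ between diets.

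On HF/HS alone, 5 of 38 members were called higher in ConvR than in GF livers and 0 lower, against 0.881% of all genes called higher. They were Cdc20 at a log2 fold change of 2.64 ± 0.43 (adjusted p = 0.00866), Kif20a with 1.54 ± 0.27 (0.0116), Ccnd1 with 1.06 ± 0.22 (0.0305), Mcm2 with 0.70 ± 0.15 (0.0349) and Cdk1 with 1.41 ± 0.32 (0.0399), each ± SE. All 5 are among the 29 members that pass the filter without ConvR libraries. The median was 0.97 over the tested members, 1.24 over the mitotic and 0.31 over the G1/S and replication members, and over those 29 members it was 0.70, with 1.16 over the mitotic and 0.23 over the others. For 21 of the 38 members all ConvR mice lay above all GF mice, against 12.7% of all genes. The 21 include Ccne1, Ccnb2, Foxm1, Ube2c and Nusap1, which passed the filter only through ConvR libraries. The count of calls changed with the animals: it was 15 without ConvR HF/HS mouse 3, 10 without GF chow mouse 1, 3 without ConvD chow mouse 2, 2 without ConvR HF/HS mouse 1, 2 without GF HF/HS mouse 1, 1 without ConvR HF/HS mouse 2, and 0 without GF HF/HS mouse 2 or 3.

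ConvR HF/HS mouse 3 departed from the others of its group. None of the 23 tested mitotic members, 0 of 23, exceeded the group mean in it, with a median deviation of -0.65 on the log2 scale, while 20 of 23 did in mouse 1 and 22 of 23 in mouse 2. Set against the highest GF HF/HS mouse, ConvR HF/HS mice 1, 2 and 3 were higher for 36, 34 and 23 of the 40 members, with 30.8%, 32.2% and 31.8% of all genes. The spread within groups was larger for the mitotic genes than the median over all genes, a comparison not matched for read level. Counting error weighs more at low counts, and its part in this spread was not tested. The median SD of the mitotic members on the log2 scale was 0.61 in ConvR HF/HS, 0.31 in GF HF/HS, 0.32 in ConvD chow, 0.43 in ConvR chow and 0.47 in GF chow mice, against 0.11 to 0.21 over all genes.

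On chow alone, 1 of 38 members was called higher in ConvR than in GF livers and 0 lower, against 2.55% of all genes called higher. It was Aurkb (log2 fold change 2.40 ± 0.64, SE, adjusted p = 0.0476), from 13, 16 and 8 reads in ConvR mice, against 0, 2 and 5 reads in GF mice. Aurkb passed the filter only through ConvR libraries and kept this call in 4 of the 15 fits that left out a library. With other libraries left out, the comparison gave between 0 and 5 calls, the 5 without ConvR chow mouse 3, with 4 without ConvR HF/HS mouse 3 and 2 without GF chow mouse 3. Without filtering, the count was 0. Mki67 and Cdk1 came next to the threshold, with log2 fold changes of 1.25 ± 0.35 (adjusted p = 0.0558) and 1.16 ± 0.33 (adjusted p = 0.0594). All ConvR mice lay above all GF mice for 15 of 38 members, against 9.82% of all genes. The 15 include Ccnb1, Plk1, Aurkb, Nusap1 and Cenpe, which passed the filter only through ConvR libraries. The median over the tested members was 0.45, with 0.69 over the mitotic and 0.15 over the G1/S and replication members. Over the 29 members that pass without ConvR libraries it was 0.23, with 0.64 over the mitotic and 0.14 over the others, and 0 of the 29 were called. ConvR chow mice 1, 2 and 3 exceeded the highest GF chow mouse for 20, 28 and 23 of the 40 members, with 27.7%, 28.4% and 25% of all genes.

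The test of the difference between the microbiota effects on HF/HS and on chow called 0 of 38 members and 0% of all genes by edgeR. At an unadjusted p below 0.05, 4 members were higher and 0 lower, against 6.22% and 6.49% of all genes. The DESeq2 Wald test called 1 member, and limma-trend on log2(TPM + 1) called 4. Leaving out ConvR chow mouse 3 or ConvR HF/HS mouse 3 gave 1 call. The 0% of all genes is that of the edgeR test on all libraries. Shares of all genes in these other runs are not given here, so their counts cannot be set against all genes. The smallest p values belonged to Cdc20, with a difference of 2.88 ± 0.64 on the log2 scale (SE, edgeR adjusted p = 0.157), and Kif20a, with 1.15 ± 0.39 (adjusted p = 0.278), neither called. In the other direction they belonged to Tk1, with -0.33 ± 0.21 (edgeR adjusted p = 0.528), and Mcm4, with -0.30 ± 0.20 (adjusted p = 0.571).

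**Figure D4:**
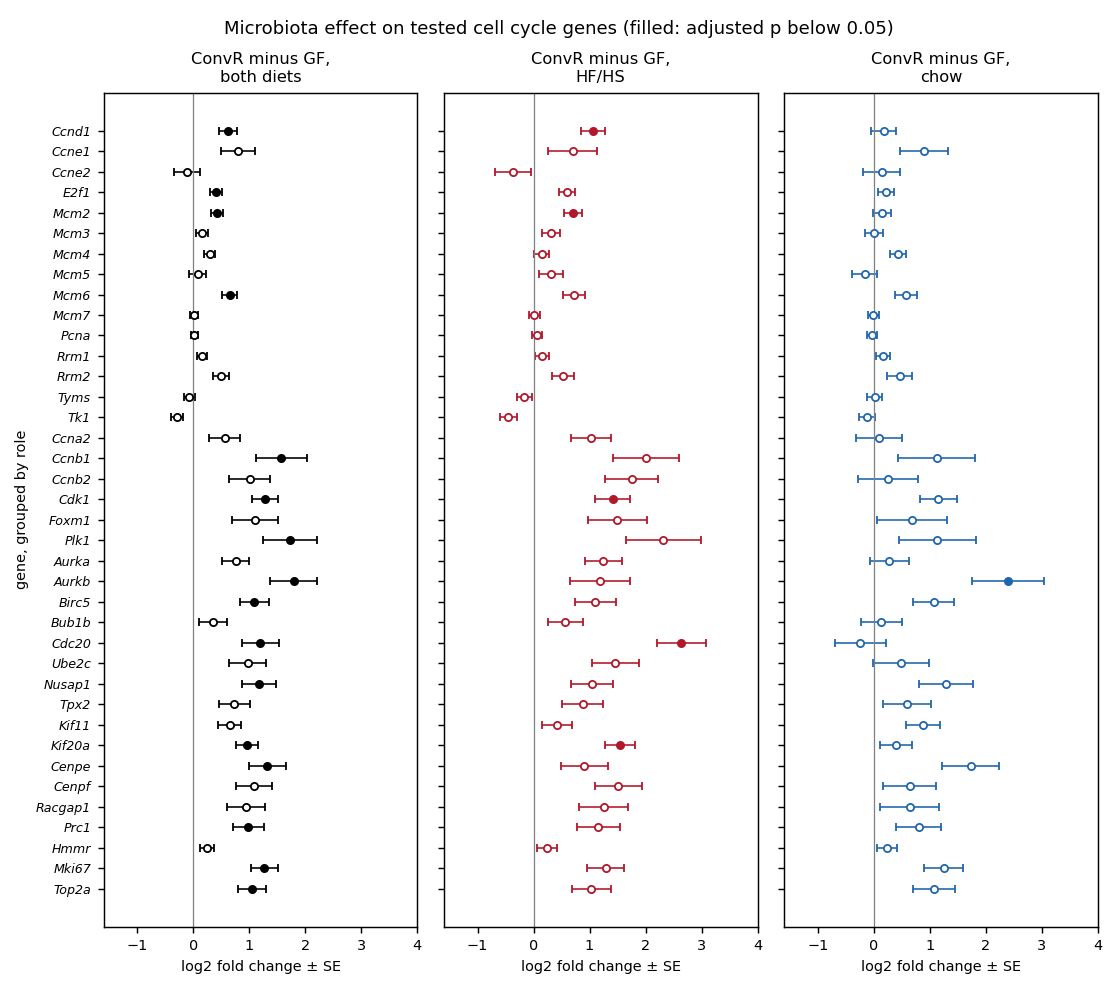
The plot gives the log2 fold change ± SE, ConvR over GF, of each tested gene (rows, by role) on HF/HS, on chow and averaged over both diets, with filled points at an adjusted p below 0.05. Mitotic genes lie mostly right of 0, with a median of 1.24 on HF/HS and 0.69 on chow (1.16 and 0.64 over those that pass the filter without ConvR libraries), and Pcna, Mcm7 and Tyms lie near 0 in the averaged panel.

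Promoter sequence is shown for 4 of the members called above, to let the motifs of mitotic and replication promoters be compared. RefSeq promoter windows of GRCm38.p6, from 250 bases before to 50 bases after a transcription start, were matched by symbol for 32 of the 40 members, with 34 windows, each on the strand of its gene. Searched on both strands were the cell cycle genes homology region (CHR, spelled TTTGAA or in its variant form TTCGAA), the CCAAT box (CCAAT), bound by NF-Y, and an E2F site (spelled TTCCCGC, or with a changed middle as TTCGCGC, or else as TTGCCGC, or last as TTGGCGC). Capitals mark matches to any of these motifs, and adjoining or overlapping matches run together.
Cdc20, chr4:118437294-118437593, minus strand: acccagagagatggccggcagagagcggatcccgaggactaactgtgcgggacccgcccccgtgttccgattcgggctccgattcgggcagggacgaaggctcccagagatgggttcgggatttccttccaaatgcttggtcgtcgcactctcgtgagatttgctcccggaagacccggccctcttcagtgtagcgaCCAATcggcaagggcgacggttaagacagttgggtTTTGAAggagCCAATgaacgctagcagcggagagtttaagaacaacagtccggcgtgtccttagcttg
Cdk1, chr10:69352863-69353162, minus strand: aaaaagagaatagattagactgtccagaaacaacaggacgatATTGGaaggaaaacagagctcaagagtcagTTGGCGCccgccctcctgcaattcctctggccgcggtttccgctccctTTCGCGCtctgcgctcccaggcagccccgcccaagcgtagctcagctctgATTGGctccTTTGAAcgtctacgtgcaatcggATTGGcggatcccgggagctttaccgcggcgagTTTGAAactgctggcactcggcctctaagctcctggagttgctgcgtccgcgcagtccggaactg
Mki67, chr7:135716330-135716629, minus strand: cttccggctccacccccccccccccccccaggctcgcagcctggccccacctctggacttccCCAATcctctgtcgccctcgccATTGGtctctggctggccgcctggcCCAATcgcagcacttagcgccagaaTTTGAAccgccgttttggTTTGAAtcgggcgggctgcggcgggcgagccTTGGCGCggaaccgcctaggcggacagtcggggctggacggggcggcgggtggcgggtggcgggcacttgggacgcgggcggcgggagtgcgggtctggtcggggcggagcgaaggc
Mcm6, chr1:128359656-128359955, minus strand: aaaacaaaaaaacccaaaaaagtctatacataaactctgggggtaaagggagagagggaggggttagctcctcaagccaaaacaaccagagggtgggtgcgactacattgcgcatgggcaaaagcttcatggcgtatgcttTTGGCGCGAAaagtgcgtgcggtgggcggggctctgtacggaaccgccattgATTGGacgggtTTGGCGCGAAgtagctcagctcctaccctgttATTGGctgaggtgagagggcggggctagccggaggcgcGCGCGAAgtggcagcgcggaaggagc
The 3 mitotic promoters carry CHR matches (TTTGAA) with CCAAT boxes (CCAAT, or ATTGG on the other strand), and that of Mcm6 carries E2F matches and CCAAT boxes but no CHR. E2F matches are present in Cdk1 and Mki67 too, and not in Cdc20.

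Over the mitotic members, 17 of 21 windows (81%) held a CHR match, against 2 of 13 windows (15.4%) of the G1/S and replication members and 19.2% of all 32851 windows. Windows and not genes are counted, so Prc1, with 2 windows that largely overlap, and Mcm7, with 2, count once per window. A CCAAT box was found in 19 of 21 mitotic windows (90.5%), 9 of 13 G1/S and replication windows (69.2%) and 37.4% of all windows. E2F matches ran the other way, with 4 of 21 mitotic windows (19%), 7 of 13 G1/S and replication windows (53.8%) and 9.57% of all windows. CHR matches overlapped no CCAAT or E2F match in the member windows, and CCAAT and E2F matches overlapped in 2 windows. Among called genes, Top2a had 4 CHR and 6 CCAAT matches, Plk1 1 of each, and Birc5 and Nusap1 none of the 3 motifs. A match is a run of letters and not a measured binding site, and no binding data were used.

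ConvD livers, colonized for 4 weeks on chow, gave no call against GF chow livers. The edgeR test called 0 of 38 members against 5.59% of all genes, and at an unadjusted p below 0.05 there were 2 members higher and 0 lower, against 11% and 13.3% of all genes. The DESeq2 Wald test also called 0. The nearest were Rrm2, with 2.74, 3.71 and 3.77 CPM in ConvD mice, against 2.34, 2.46 and 1.84 CPM in GF chow mice (log2 fold change 0.63 ± 0.22, SE, adjusted p = 0.0973), and Nusap1, with 0.484, 0.587 and 0.333 CPM, against 0.138, 0.229 and 0.29 CPM in GF chow mice (1.04 ± 0.48, adjusted p = 0.201). In neither gene did the groups overlap. The smallest p among lower values were those of Birc5, with -0.62 ± 0.43 (adjusted p = 0.397), and Hmmr, with -0.20 ± 0.18 (adjusted p = 0.509), neither called.

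Against ConvR chow livers, ConvD livers had 1 of 38 members called lower and 0 higher, with 3.3% of all genes called lower. Birc5 had 0.376, 0.542 and 0.444 CPM in ConvD mice, against 2.09, 1.27 and 1.09 CPM in ConvR chow mice, without overlap (log2 fold change -1.69 ± 0.39, SE, adjusted p = 0.029). The call was lost on leaving out any 1 of ConvR chow mice 1 and 2 or of the 3 ConvD mice, and the count was 2 without GF chow mouse 1 or ConvR chow mouse 3. All ConvD mice lay below all ConvR mice for 9 members, against 15.1% of all genes, among them Mki67, Prc1, Cenpf and Kif11. The 9 also include Ccne1, Ccnb1 and Aurkb, which passed the filter only through ConvR libraries. Mki67 averaged 2.81 ± 0.388 CPM in ConvD mice, against 5.23 ± 1.80 CPM in ConvR chow and 2.16 ± 0.741 CPM in GF chow mice (SD, n = 3 each). The mitotic sum was 20.5, 28.1 and 23.4 CPM in ConvD mice, overlapping the GF chow mice and below all ConvR chow mice. Both chow comparisons of ConvR mice, and both of GF chow mice, share their 3 libraries, so they are not independent of each other. Both ConvD comparisons also moved with a rank correlation of expression with gene length, given with the diet comparisons below.

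Between the diets, the nucleotide genes Tk1 and Rrm2 changed in opposite directions, Tk1 lower and Rrm2 higher on HF/HS. Averaged over ConvR and GF mice, 3 of 38 members were called higher on HF/HS and 1 lower, against 11.4% and 13.7% of all genes. Tk1 had 9.33, 6.28 and 7.82 CPM in ConvR HF/HS mice and 8.65, 11.8 and 11.8 CPM in GF HF/HS mice, against 14.2, 13.3 and 14.7 CPM in ConvR chow mice and 13.3, 15.8 and 16.6 CPM in GF chow mice. Every HF/HS mouse lay below every chow mouse, as for 4.52% of all genes, and the log2 fold change was -0.68 ± 0.10 (SE, adjusted p = 0.00058). Rrm2, the small subunit whose level limits ribonucleotide reductase in S phase, had 5.75, 4.95 and 3.73 CPM in ConvR HF/HS mice and 3.44, 3.31 and 3.26 CPM in GF HF/HS mice, against 3.41, 3.44 and 2.23 CPM in ConvR chow mice and 2.34, 2.46 and 1.84 CPM in GF chow mice. The log2 fold change of Rrm2 was 0.63 ± 0.15 (adjusted p = 0.00766), and both Tk1 and Rrm2 were called in all 15 fits that omitted a library. Nusap1 and Bub1b were called with 0.89 ± 0.31 (adjusted p = 0.0453) and 0.70 ± 0.24 (adjusted p = 0.047), and each kept the call in 3 of the 15 such fits. Nusap1 passed the filter only through ConvR libraries. Among the 29 members that pass without those libraries, 2 were called higher on HF/HS and 1 lower. Bub1b had 0.95, 1.93 and 1.05 CPM in ConvR HF/HS mice and 0.81, 0.946 and 0.873 CPM in GF HF/HS mice, against 0.385, 0.844 and 0.844 CPM in ConvR chow mice and 0.551, 0.571 and 0.725 CPM in GF chow mice. The median over members was 0.27, with 0.40 over the mitotic members and -0.01 over the others, and 0.12 over the 29 members that pass without ConvR libraries. Of 10 sinusoidal endothelial markers 7 were called higher on HF/HS, and of 6 tested neutrophil markers 4 and of 20 acute phase genes 13 were called lower, and their part in the diet differences was not tested. The neutrophil markers called include Prtn3 and Retnlg, which were tested only through ConvR libraries. A rank correlation of expression with gene length, which differed between libraries, was -0.341 to 0.0178 in the GF and ConvR chow livers and 0.0779 to 0.277 in the other 9. It therefore moved with these diet comparisons. The ConvD livers, at 0.0779 to 0.196, are among those 9, so it moved with both ConvD comparisons as well. Its part in any of them was not tested beyond a fit with the trend removed.

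Within ConvR mice, 3 of 38 members were called higher on HF/HS than on chow and 1 lower, against 6.75% and 7.8% of all genes. Cdc20 had a log2 fold change of 1.70 ± 0.39 (SE, adjusted p = 0.011), Kif20a of 0.92 ± 0.25 (0.0266), Rrm2 of 0.67 ± 0.20 (0.0426) and Tk1 of -0.84 ± 0.15 (0.00239), with no overlap between the diets in any of these genes. Leaving out a library gave 11 calls without ConvR HF/HS mouse 3, 8 without GF chow mouse 1, 2 without ConvR chow mouse 2 or ConvR HF/HS mouse 2, and 1 without ConvR chow mouse 1 or ConvR HF/HS mouse 1. Within GF mice, Tk1 was the 1 member called, lower on HF/HS with -0.51 ± 0.15 (adjusted p = 0.0428), against 5.45% of all genes called lower. That call was kept in 4 of the 15 fits that left out a library and was lost with the length trend removed. Cdc20 on HF/HS lay below chow in all GF mice without a call (-1.17 ± 0.50, adjusted p = 0.154).

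Further genes of the cycle were taken from lists fixed by function. Of 41 tested genes among 60 other mitotic genes, 7 were called higher in ConvR livers and 1 lower, averaged over diets, against 4.14% of all genes called higher and 4.25% lower, with a median log2 fold change of 0.50. Spc25, of the kinetochore NDC80 complex, had 5.70, 6.04 and 4.69 CPM in ConvR HF/HS mice, against 2.13, 2.36 and 1.86 CPM in GF HF/HS mice. On chow it had 2.09, 2.05 and 3.08 CPM in ConvR mice, against 1.93, 2.23 and 1.60 CPM in GF mice, with overlap. The averaged log2 fold change of Spc25 was 0.85 ± 0.14 (SE, adjusted p = 0.00416). Nek2, a centrosome kinase, had 4.71, 6.38 and 4.82 CPM in ConvR HF/HS mice, against 2.08, 2.63 and 2.21 CPM in GF HF/HS mice, and 0.79 ± 0.16 (adjusted p = 0.0109). For Spc25 and Nek2, ConvR HF/HS mouse 3 was thus also well above the GF HF/HS mice. Ckap2l, a spindle protein, had 1.59 ± 0.34 (adjusted p = 0.015). On HF/HS alone, 6 of 41 were called higher and 0 lower, against 0.881% of all genes called higher, led by Spc25 with 1.36 ± 0.19 (adjusted p = 0.00533), Nek2 with 1.2 ± 0.21 (0.014) and Kif2c, a microtubule depolymerase, with 2.76 ± 0.61 (0.0366). Outside ConvR mice, Kif2c had at most 0.316 CPM, and Ckap2l exceeded about 0.547 CPM only in ConvD mouse 2 (0.768 CPM). Both were thus tested only through ConvR libraries, and counts over this list are a description. On chow 1 of 41 was called higher, against 2.55% of all genes, namely Incenp, the scaffold of the complex that holds Aurkb and Birc5, with 0.99 ± 0.27 (adjusted p = 0.0479).

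Of 28 tested other replication genes, 1 was called higher and 0 lower in ConvR livers averaged over diets, with a median of 0.08, close to the 4.14% of all genes called higher. The gene was Dbf4, the activator of the CDC7 kinase at origins, with 2.68, 3.31 and 4.09 CPM in ConvR HF/HS mice and 2.75, 2.83 and 3.02 CPM in ConvR chow mice, against 2.18, 2.36 and 1.46 CPM in GF HF/HS mice and 1.93, 1.26 and 2.03 CPM in GF chow mice (log2 fold change 0.73 ± 0.16, SE, adjusted p = 0.016). Of 19 tested other G1/S regulators, 2 were called higher and 1 lower, against 4.14% and 4.25% of all genes. Those higher were E2f2, an activator E2F, with 0.91 ± 0.18 (adjusted p = 0.01) and Cdc25a, the phosphatase that activates CDKs, with 0.45 ± 0.10 (adjusted p = 0.0179). Tfdp2, an E2F partner, was called lower, with -0.33 ± 0.08 (adjusted p = 0.0238). On HF/HS alone, E2f2 was the 1 G1/S regulator called among the 19, where 0.881% of all genes were called higher. It had 3.72, 2.28 and 2.00 CPM in ConvR mice, against 1.27, 1.16 and 1.22 CPM in GF mice (1.13 ± 0.25, adjusted p = 0.0349).

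Cdkn1a, which encodes the CDK inhibitor p21, rose together with the mitotic genes in the ConvR against GF comparison averaged over diets. It had 33.8, 51.1 and 16.0 CPM in ConvR HF/HS mice and 26.3, 24.4 and 7.30 CPM in ConvR chow mice, against 11.6, 7.67 and 5.47 CPM in GF HF/HS mice and 14.9, 5.43 and 7.11 CPM in GF chow mice. The log2 fold change was 1.56 ± 0.37 (SE, adjusted p = 0.0216), and 2.02 ± 0.52 on HF/HS alone (adjusted p = 0.0664). ConvD mice had 30.3, 14.9 and 23.1 CPM, which was 1.33 ± 0.52 above GF chow mice on the log2 scale (adjusted p = 0.133). Cdkn1a was the 1 called among 5 tested CDK inhibitors in the averaged comparison, against 4.14% of all genes called higher. Of 18 p53 targets, a list that also holds Cdkn1a, 5 were called higher and 1 lower, against 4.14% and 4.25% of all genes. Aen, a nuclease, had 17.4, 17.3 and 17.0 CPM in ConvR HF/HS mice, against 11.4, 12.5 and 9.9 CPM in GF HF/HS mice. On chow it had 17.0, 13.8 and 16.9 CPM in ConvR mice, against 11.8, 13.8 and 14.3 CPM in GF mice, with overlap. The averaged log2 fold change of Aen was 0.43 ± 0.08 (adjusted p = 0.00493). Ccng1, cyclin G1, and Eda2r, a receptor of the TNF family, had 0.39 ± 0.08 (adjusted p = 0.0131) and 1.72 ± 0.38 (adjusted p = 0.0174). Outside ConvR mice, Eda2r exceeded about 0.547 CPM only in ConvD mice 1 and 2 (1.5 and 0.678 CPM). Eda2r was thus tested only through ConvR libraries, and counts over the p53 list are a description. In a list of 10 tested ploidy and atypical E2F genes, 0 were called in the averaged comparison. On HF/HS alone 1 was called, Anxa2, where 0.881% of all genes were called higher. Anxa2 had 49.6, 55.3 and 20.5 CPM in ConvR mice, against 21.6, 17.9 and 17.5 CPM in GF mice (1.14 ± 0.25, adjusted p = 0.0391).

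In lists of signals that act on hepatocyte growth, calls between ConvR and GF livers averaged over diets were mostly lower in ConvR livers, where 4.14% of all genes were called higher and 4.25% lower. Of 20 tested mitogens and receptors 0 were called higher and 2 lower, Klb, the co-receptor for FGF15 and FGF21 (log2 fold change -0.63 ± 0.11, SE, adjusted p = 0.00422), and Fst, the activin antagonist follistatin, with -2.31 ± 0.48 (adjusted p = 0.0133). Of 16 targets of Wnt signalling in liver 0 were called higher and 3 lower, led by Cyp1a2, a cytochrome P450 of pericentral hepatocytes, with -0.73 ± 0.10 (adjusted p = 0.00137). Of 8 tested genes of a Hippo and YAP list 1 was called each way, Tead1 with 0.67 ± 0.16 (adjusted p = 0.0213) and Cyr61 with -0.82 ± 0.20 (adjusted p = 0.0269).

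Other transcripts moved with some of these groups. Of 20 acute phase genes 16 were called higher in ConvR than in GF chow livers, against 2.55% of all genes, and Saa2 had 9890, 12800 and 695 CPM in ConvR chow mice, against 12.6, 5.03 and 6.48 CPM in GF chow mice. Markers of neutrophils and their precursors summed to 56.1, 70.7 and 16.1 CPM in ConvR chow mice, against 18.4, 12.9 and 12.3 CPM in GF chow mice, with 2 of 6 tested markers called higher, S100a8 and Prtn3. Prtn3, a gene of neutrophil precursors, had 21.0, 21.9 and 1.57 CPM in ConvR chow mice, against 0.344, 0.343 and 0.145 CPM in GF chow mice, while Ctsg, another precursor gene, was at 0 in every library. Outside ConvR mice, Prtn3 exceeded about 0.547 CPM only in GF HF/HS mouse 1 (1.11 CPM). Prtn3 was thus tested only through ConvR libraries, and the count of neutrophil markers called is a description. Of 16 tested immediate early genes 9 were called lower in ConvR than in GF chow livers, against 2.17% of all genes, with Egr1 at 10.2, 9.64 and 5.31 CPM in ConvR mice, against 302, 109 and 54.2 CPM in GF mice. The part of these in the chow difference of the mitotic genes was not tested. On HF/HS, 0 of 20 acute phase and 0 of 16 immediate early genes were called, and the neutrophil sum was 11.5, 12.8 and 14.4 CPM in ConvR mice, against 11.6, 13.0 and 9.95 CPM in GF mice, with 1 of 6 tested markers, Cebpe, called higher.

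Hepatocyte markers, dominated by Alb, summed to 99700 to 102000 CPM in ConvR HF/HS mice, against 134000 to 141000 CPM in GF HF/HS mice, without overlap, with 0 of 10 called on HF/HS. The TMM factors, which offset such shifts of abundant transcripts, were 1.09, 1.13 and 1.05 in ConvR HF/HS mice, against 0.974, 0.963 and 0.965 in GF HF/HS mice. With no such factors 14 members were called on HF/HS, the median of all genes then being 0.17 above 0 on the log2 scale. Kupffer cell markers summed to 557, 516 and 807 CPM in ConvR HF/HS mice, against 596, 485 and 498 CPM in GF HF/HS mice, with overlap. Of the 12 tested, 0 were called on HF/HS and 1 was higher averaged over diets. Cholangiocyte markers summed to 125, 196 and 93.4 CPM in ConvR HF/HS mice, against 111, 129 and 107 CPM in GF HF/HS mice, and 0 of 7 tested were called on HF/HS. T and NK cell markers summed to 5.39 to 7.64 CPM in ConvR HF/HS mice, against 9.9 to 10.5 CPM in GF HF/HS mice, below GF in all 3 mice, with 0 of 8 tested called. B and plasma cell markers summed to 155 to 218 CPM in ConvR HF/HS mice, against 195 to 213 CPM in GF HF/HS mice, with 0 of 6 tested called. Erythroid markers summed to 307 to 453 CPM in ConvR HF/HS mice, against 365 to 622 CPM in GF HF/HS mice, with 1 of 10 tested called, Tfrc, lower with a log2 fold change of -1.2 (edgeR adjusted p = 0.0349). Of the erythroid factors, Klf1 had 0.841 to 1.47 CPM in ConvR HF/HS mice, against 2.44 to 2.63 CPM in GF HF/HS mice, without a call, and Gata1 was at 0 in 14 of the 15 libraries. The list was mixed. Car1 also lay lower in ConvR HF/HS mice (2.25 to 3.05 CPM, against 4.94 to 5.36 CPM in GF HF/HS mice). Epor overlapped (0.778 to 1.14 CPM, against 0.788 to 1.05 CPM), and Ermap lay higher (0.318 to 0.648 CPM, against 0.202 to 0.315 CPM), none of them called. Monocyte markers summed to 62.6 to 70.3 CPM in ConvR HF/HS mice, against 54.8 to 61.6 CPM in GF HF/HS mice, without overlap, with 0 of 7 tested called. Sinusoidal endothelial markers summed to 427 to 507 CPM in ConvR HF/HS mice, against 419 to 479 CPM in GF HF/HS mice, and stellate cell markers to 361 to 445 CPM, against 338 to 383 CPM in GF HF/HS mice, with 0 of 10 and 0 of 12 called. Averaged over diets, 2 of 7 tested monocyte markers (Ccr2 and Cx3cr1) and the stellate cell marker Col1a1 were also called higher in ConvR livers, and 2 of 10 hepatocyte markers (Apoa1 and Cps1), 2 of 10 erythroid markers (Tfrc and Car1) and the T cell marker Cd4 lower. Over all genes, 4.14% were called higher and 4.25% lower in that averaged comparison. On chow alone, the Kupffer cell marker Cd163, Ccr2 and the stellate cell markers Dcn and Lum were called higher in ConvR livers, against 2.55% of all genes. The part of these shifts in the difference of the mitotic genes was not tested. Which cells held the mitotic transcripts was not measured.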

How the data were processed

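Liver RNA was profiled from poly(A) libraries made with a stranded kit, per the labels' protocols. Per the submitters' processing notes, Bowtie2, RSEM 1.2.23 and build mm9 were used, and the role of each is not given further in the sources used here. The deposited expected counts are the authors' estimates per gene, not scaled between libraries, and were rounded to whole numbers. The deposited TPM values are the authors', scaled within a library by gene length, and were used to compare levels between genes. The deposited gene lengths served a check on length. In 31 of the 40 genes an expected count was fractional (by over 0.005) in at least 1 library, as reads shared with similar sequences are divided, so pseudogene copies could take part of a value. Gene positions are not reported, since the reference was of another build than mm9. Promoter windows are RefSeq's on GRCm38.p6.

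Groups were read from sample titles, 3 mice in each of 5 groups. Genes were kept by filterByExpr (minimum count 10), libraries scaled by TMM, and all 15 libraries fitted in edgeR 4.0.16 (R 4.3.3) with a mean per group and 10 residual degrees of freedom. The two-sided quasi-likelihood F test was adjusted by the Benjamini-Hochberg method over 12377 genes, for 9 comparisons, and called at 0.05. Standard errors (SE) of log2 fold changes were derived from the F statistics. Recovery was tested on simulated data. Members and lists were chosen with earlier results of these data known. Called members were named, with 2 each way by smallest p where a comparison had no call, up to 3 called genes per related list in the comparisons described, and Mki67, Top2a, Ccnd1, Ccne2, Mcm2, Pcna, Ccnb1, Cdk1 and Cdkn1a throughout. Other genes named for context were chosen after their values were seen. Alternatives used DESeq2 1.42.0 size factors and Wald test, limma 3.58.1 (limma-trend) on log2(TPM + 1) and log2 CPM, no normalization factors, no filter, the compared groups alone, a replicate block, a length trend removed (lowess span 0.5), and libraries left out. Replicate numbers were not used to pair samples, since the labels give no pairing, and whether same-numbered mice shared a litter or day is not known.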

Additional observations from a re-analysis of the deposited data

How the results depend on the processing

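No call of the 16 averaged microbiota calls reversed under any alternative run, and of them DESeq2 size factors, no normalization, no filter and the DESeq2 Wald test each kept all 16, removal of the length trend 14, limma-trend on log2 CPM 13 and on log2(TPM + 1) 11. Main counts of members called were 16 for the averaged microbiota effect, 5 for ConvR against GF on HF/HS, 1 on chow, 0 for ConvD against GF, 1 for ConvD against ConvR, 4 for diet in ConvR and 1 in GF mice, 4 for averaged diet and 0 for the interaction. Counts under the alternatives that follow are of members only. The shares of all genes called in the same runs are not given here, so a changed count is not particular to the members. The DESeq2 Wald test gave 11 on HF/HS, 3 on chow, 2 for averaged diet and 1 for the interaction. On log2(TPM + 1) limma-trend gave 13 on HF/HS, 2 for ConvD against ConvR, 21 for diet in ConvR and 0 in GF mice, 13 for averaged diet and 4 for the interaction, while the median of all genes moved by up to 0.296. Without normalization factors there were 14 on HF/HS, 0 on chow and 13 for diet in ConvR mice, with the median of all genes at 0.165 and 0.186 in the HF/HS and the diet comparison. No filter gave 0 on chow and 2 for averaged diet. With only the groups compared there were 9 for the averaged microbiota effect, 0 on chow, 0 for ConvD against ConvR, 1 for diet in ConvR and 0 in GF mice, and 2 for averaged diet. The length trend removed gave 2 on chow and 0 for diet in GF mice, and limma-trend on log2 CPM, chosen after seeing the data, 2 on chow. Without ConvR chow mice 1 and 2 there were 2 averaged microbiota calls, 0 on chow, 0 for ConvD against ConvR, 1 for diet in ConvR and 0 in GF mice. Without ConvR HF/HS mice 1 and 2, an alternative chosen after seeing the data, there were 0 averaged microbiota calls, 0 on HF/HS, 1 for diet in ConvR mice and 1 for averaged diet. Each library left out in turn gave 4 to 21 averaged microbiota calls, 0 to 15 on HF/HS, 0 to 5 on chow, 0 to 2 for ConvD against ConvR, 0 for ConvD against GF, 1 to 11 for diet in ConvR and 0 to 2 in GF mice, 2 to 7 for averaged diet and 0 to 1 for the interaction. Same-numbered mice deviated together no more than others (correlations of -0.23 to 0.246, median 0.006, over 30 pairs, against -0.243 to 0.225 over 60 pairs of different numbers), and 2 of 15 libraries correlated best with their own number. The replicate block gave 16 averaged microbiota calls, 14 of them among the 16 made without it, 2 on HF/HS, 0 on chow and 0 for diet in GF mice. E2f6, called lower on HF/HS in ConvR mice, had 0.00 on TPM. Among uncalled genes near 0 in the averaged microbiota effect, Ccne2 had 0.02 without GF chow mouse 2 and 0.00 without GF HF/HS mouse 2 (range -0.23 to 0.02), and Pcna -0.02 without GF HF/HS mouse 1 and 0.00 without ConvR HF/HS mouse 3 (range -0.02 to 0.06). The cause of these changes was not tested. Depth limits the mitotic genes, several of which rest on fewer than 40 reads per library.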
